A study of Mus musculus with 6 samples.

Results

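The retinoic acid receptors (Rara, Rarb and Rarg) and the retinoid X receptors (Rxra, Rxrb and Rxrg) were examined in Hepa1-6, an established mouse hepatoma line, with and without knockdown of midnolin. The members were the 6 genes of both families, all found among the 25078 genes for which counts and RPKM values were deposited. RNA was sequenced after removal of ribosomal RNA in 6 libraries. The wt library came from cells with no vector and no treatment, the 2 scr libraries (25-2 and 50-1) from cells carrying a scramble lentiviral vector, and the 3 knockdown libraries (25-3, 50-2 and 50-5) from cells carrying a midnolin shRNA lentiviral vector. Both kinds of transduced cells had been selected with puromycin and expanded from single-cell colonies by limiting dilution, so differences between clones and between groups cannot be told apart in single libraries. All cells were grown in DMEM with fetal bovine serum. The labels do not say which clone a library came from or what 25 and 50 stand for, nor whether the scr libraries are 1 clone or more, so p-values measure the spread between these libraries.

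RARs are nuclear receptors for all-trans retinoic acid and bind DNA as heterodimers with RXRs, at pairs of short half-sites. Without ligand the pair recruits corepressors and holds target genes down, and with ligand it recruits coactivators. RXRs also pair with other nuclear receptors, among them PPARs, liver X receptors, the farnesoid X receptor and thyroid hormone receptors, and in liver these pairs govern lipid, bile acid and retinoid metabolism. Rarb is itself a classical retinoic acid target, through an element of direct repeats spaced by 5 bases (DR5) beside its internal promoter.

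That element is shown because Rarb was almost silent in all 6 libraries. The RefSeq window of 300 bases around this start of Rarb (GRCm38.p6, chr14:16575427-16575726, minus strand, 250 bases before the start to 50 after it) is given 5′ to 3′ with the half-sites of the element in capitals.
Rarb: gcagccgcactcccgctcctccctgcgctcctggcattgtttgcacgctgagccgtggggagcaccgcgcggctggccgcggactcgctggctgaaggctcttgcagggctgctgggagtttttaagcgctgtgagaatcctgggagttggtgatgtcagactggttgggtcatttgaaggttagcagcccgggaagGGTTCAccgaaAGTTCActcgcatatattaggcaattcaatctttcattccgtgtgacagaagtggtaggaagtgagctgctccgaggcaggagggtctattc
The element lies 53 to 37 bases before the start. The search took any pair of half-sites, each of them AGGTCA or GGGTCA or AGTTCA or GGTTCA, in the same direction on either strand with 1, 2 or 5 bases between them. A DR5 pair was present in 32 of 32851 RefSeq windows (0.0974%). In the 13 windows found for the 6 receptors, some of which overlap, it was present only in that of Rarb, and no pair spaced by 1 or 2 bases was found in any. Windows were found for 12 of 15 other retinoic acid-inducible genes, and of these Cyp26a1, an enzyme that breaks down retinoic acid, had a DR5 pair. The elements of both genes are set side by side, each read along its own strand with the half-sites in capitals.
Rarb: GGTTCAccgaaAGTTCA
Cyp26a1: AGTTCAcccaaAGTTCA
The Cyp26a1 element lies on the strand opposite to the gene (chr19:37697776-37697792, gene on the plus strand). A match is a description of the letters and not of a bound site, and the binding of receptors was not measured.

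The targeted gene, Midn, had an RPKM of 60.5 in wt, 59.6 in scr 25-2, 50.8 in scr 50-1, 20.3 in knockdown 25-3, 21.8 in knockdown 50-2 and 22.1 in knockdown 50-5, so all knockdown libraries lay below the rest. The log2 fold change was -1.38 (standard error 0.133, Benjamini-Hochberg FDR 0.00777 by the quasi-likelihood test of edgeR, n = 3 against 2 libraries), and without knockdown 50-2 the FDR was 0.0525. The total count on genes ranged from 25586301 (wt) to 33119710 (knockdown 50-5). Of 10 hepatocyte and hepatoma markers, 10 had an RPKM over 1 in at least 1 library, and their summed RPKM was 5947 in wt, 3400 to 4660 in scr and 935 to 1952 in the knockdown libraries. Of the 9 tested, 0 were called, beside 10.6% of all genes tested, and they differed in direction. Alb, serum albumin, had a mean RPKM of 2341 in scr and 139.8 in knockdown cells, while Apob, an apolipoprotein, had 2.03 and 31.5 and Krt18, a keratin, 471 and 871 (Benjamini-Hochberg FDR 0.0712, 0.0822 and 0.103 by the quasi-likelihood test of edgeR). The knockdown libraries differed among themselves. Apob was 52.2 in 25-3, 37.8 in 50-2 and 4.37 in 50-5, and Alb 336, 62.7 and 20.9. Of 12 markers of other liver cells, 4 had an RPKM over 1 in a library, with a summed RPKM of 10.2 in wt, 5.34 to 6.99 in scr and 9.12 to 11.03 in knockdown. The macrophage marker Cd68 made up most of this sum in the scr and knockdown libraries but not in wt (3.51), with an RPKM of 3.02 and 4.53 in the scr libraries and of 6.22 to 9.21 in the knockdown libraries, all above scr (log2 fold change 0.97, Benjamini-Hochberg FDR 0.0989 by the quasi-likelihood test of edgeR). Adgre1, also a macrophage marker, had at most 4 counts and an RPKM of 0 in every knockdown library. In wt, Cd68 was followed by the endothelial marker Pecam1 (2.85), the cholangiocyte marker Epcam (2.12) and the stellate marker Des (1.59). The leukocyte marker Ptprc had at most 30 counts and the fibroblast marker Col1a2 at most 4. In such bulk samples, fewer cells of a type and less RNA per cell cannot be told apart, although the scr and knockdown cells are a cell line grown from single-cell colonies. The part of these differences in the receptor values was not tested.

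Of the RAR family, Hepa1-6 cells expressed Rara and Rarg, and of the RXR family Rxra and Rxrb. Rarb and Rxrg were at or near 0 in each of the 6 libraries. RPKM is a level per kilobase of exon, so the members can be ranked against each other as far as the exon lengths hold. In the deposited values and in the GENCODE M21 annotation these were 2768 and 3973 bases for Rxrb and 3399 and 4261 for Rarg. For Rara they were 4339 and 4365, and for Rxra 5466 and 5462. Counts of Rxrb (1040 to 1294) were like those of Rara (912 to 1465), so the higher RPKM of Rxrb rests on its shorter exon length. The mean RPKM over the 6 libraries was 13.8 for Rxrb, 9.33 for Rara, 9.32 for Rarg, 7.97 for Rxra, 0.0208 for Rarb and 0 for Rxrg. Rxrb was above Rara in 6 of 6 libraries and their ranges did not overlap. Rara and Rarg could not be ordered, since Rara was higher in 2 of 6 libraries and their difference averaged 0.0113 ± 2.17 (SD, n = 6). Rarg and Rxra overlapped as well, with Rarg the higher in 4 of 6 libraries. Among all 25078 genes, the mean RPKM of Rxrb ranked 5020, that of Rara 6397, that of Rarg 6402 and that of Rxra 6882.

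**Figure D1:**
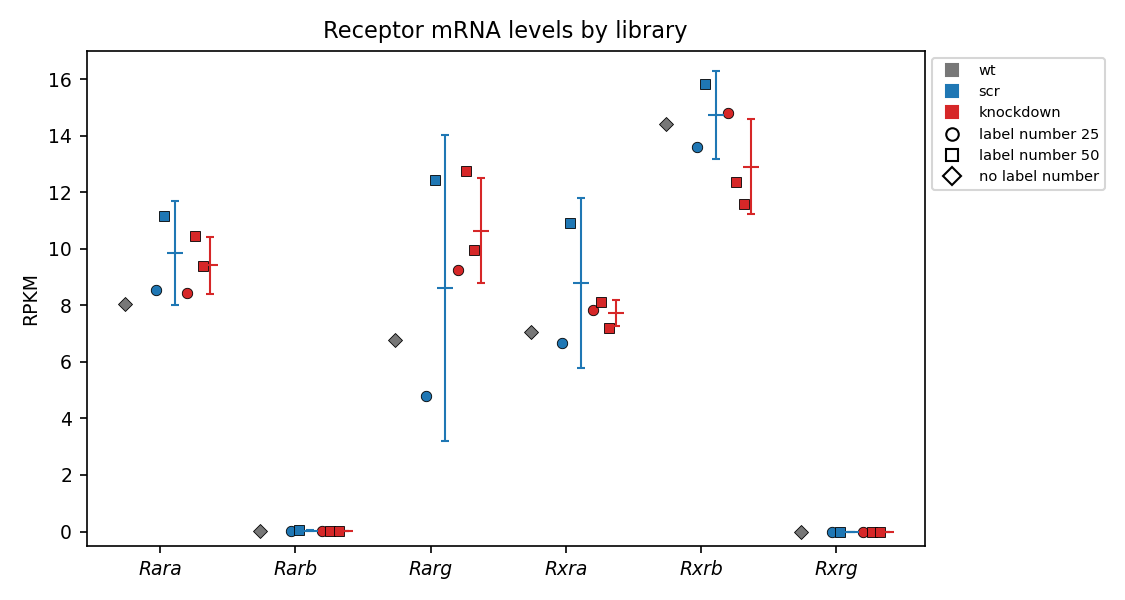
RPKM (linear axis) of the 6 receptor genes in each library. Points are libraries, coloured by group and shaped by the first number of their label, and bars give the mean and SD of the 2 scr and the 3 knockdown libraries. In Rara, Rarg, Rxra and Rxrb the scr and knockdown points overlap, and Rarb and Rxrg lie at the foot of the axis.

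Rara, the most widely expressed RAR (chromosome 11 of mm10, 98937696 to 98974942, plus strand, 4339 exon bases), had an RPKM of 8.06 in wt, 8.54 in scr 25-2, 11.1 in scr 50-1, 8.42 in knockdown 25-3, 10.4 in knockdown 50-2 and 9.37 in knockdown 50-5. The lowest value was that of wt and the highest that of scr 50-1, and the knockdown libraries overlapped the scr libraries. The means were 9.84 ± 1.84 (SD, n = 2) in scr and 9.41 ± 1.02 (SD, n = 3) in knockdown cells. The log2 fold change was -0.076 with a 95% interval from -0.50 to 0.35 (Benjamini-Hochberg FDR 0.803 by the quasi-likelihood test of edgeR). A fall or a rise by the fold change of 1.5 used for calls lies outside this interval. The direction of Rara was upward without scr 50-1 (log2 fold change 0.13) and with wt added to the controls (0.022).

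Rarg, a RAR prominent in skin and in the embryo (chromosome 15, 102234938 to 102257522, minus strand, 3399 exon bases), varied most among the expressed receptors. Its RPKM was 6.78 in wt, 4.79 in scr 25-2, 12.4 in scr 50-1, 9.24 in knockdown 25-3, 12.7 in knockdown 50-2 and 9.95 in knockdown 50-5. The scr libraries thus held the lowest and the second highest value of the 6, and knockdown 50-2 lay just above both while knockdown 25-3 and 50-5 lay between them. Scr 50-1 was 2.59 times scr 25-2, with 1203 and 479 counts, while counting error for the smallest of the 6 counts was 4.57%. A difference between both scr libraries at least this large was found in 7.81% of 11424 genes. The means were 8.61 ± 5.40 (SD, n = 2) in scr and 10.6 ± 1.85 (SD, n = 3) in knockdown cells, and the highest knockdown library was 1.38 times the lowest. The log2 fold change was 0.30 with a 95% interval from -0.70 to 1.29 (Benjamini-Hochberg FDR 0.657 by the quasi-likelihood test of edgeR), which spans more than a 1.5-fold change in either direction. A single scr library decided the value of Rarg. Without scr 50-1 Rarg was called higher in knockdown cells, with a log2 fold change of 1.14 (FDR 0.0463 from the same test), and without scr 25-2 the log2 fold change was -0.22 (FDR 0.519). Each of these fits has a single scr library, which is assumed to vary as the knockdown libraries do, so that call does not take the spread between scr libraries into account.

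Rarb (chromosome 14, 16430840 to 17082331, minus strand, 3776 exon bases) had 2 counts in wt, 1 in scr 25-2, 5 in scr 50-1, 1 in knockdown 25-3, 2 in knockdown 50-2 and 3 in knockdown 50-5. The 14 counts in all gave RPKM values between 0.0084 and 0.0465, and the exact Poisson intervals (95%, counting error only) of the libraries with the fewest and the most counts, 0.0253 to 5.57 and 1.62 to 11.7 counts, overlapped. Rarb did not reach the RPKM of 1 required for testing. In the gene coordinates deposited with the counts, no other gene overlapped the span of Rarb. In the GENCODE M21 annotation, which was not used for the counts, 2020 of its 5265 exon bases are shared with Top2b and an antisense RNA on the opposite strand. Whether the counting used strand is not stated, so these few counts cannot be assigned to Rarb with certainty.

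Rxra, the main RXR of adult liver (chromosome 2, 27677201 to 27763319, plus strand, 5466 exon bases), had an RPKM of 7.05 in wt, 6.68 in scr 25-2, 10.9 in scr 50-1, 7.83 in knockdown 25-3, 8.10 in knockdown 50-2 and 7.21 in knockdown 50-5. Scr 50-1 stood above the other 5 libraries, at 1.64 times scr 25-2. The means were 8.80 ± 3.00 (SD, n = 2) in scr and 7.71 ± 0.458 (SD, n = 3) in knockdown cells. The log2 fold change was -0.20 with a 95% interval from -0.75 to 0.35 (Benjamini-Hochberg FDR 0.577 by the quasi-likelihood test of edgeR). Here too the scr library mattered, since the log2 fold change was 0.20 without scr 50-1 (FDR 0.433 from the same test) and -0.50 without scr 25-2 (FDR 0.0678), again with a single scr library in each fit.

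Rxrb, an RXR found in most tissues (chromosome 17, 34031812 to 34038403, plus strand, 2768 exon bases), had the highest RPKM of both families in 5 of 6 libraries. The exception was knockdown 50-2, in which Rarg was higher. Its RPKM was 14.4 in wt, 13.6 in scr 25-2, 15.8 in scr 50-1, 14.8 in knockdown 25-3, 12.3 in knockdown 50-2 and 11.6 in knockdown 50-5. Knockdown 50-2 and 50-5 were below the other libraries, while knockdown 25-3 lay between both scr libraries. The means were 14.7 ± 1.56 (SD, n = 2) in scr and 12.9 ± 1.68 (SD, n = 3) in knockdown cells. The log2 fold change was -0.20 with a 95% interval from -0.60 to 0.20 (Benjamini-Hochberg FDR 0.438 by the quasi-likelihood test of edgeR). Leaving out 1 library at a time gave values from -0.31 to -0.090.

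Rxrg, an RXR of muscle and brain (chromosome 1, 167598362 to 167639623, plus strand, 2363 exon bases), had 0 counts in each of the 6 libraries. Taking 3 counts per library as the one-sided limit that a count of 0 allows, the RPKM could be up to 0.0384 to 0.0487 (counting error only), and the two-sided interval used for Rarb would reach 3.69 counts, so Rxrg could not be detected or tested.

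Of the 6 receptors, the 4 with an RPKM over 1 were tested and 0 were called at an FDR under 0.05 with a fold change of at least 1.5. This count stands beside 10.6% of all 11577 genes tested (1230 genes), with 5.4% higher and 5.23% lower in knockdown cells. None of the 4 reached an unadjusted p under 0.05 in edgeR, in DESeq2 or in limma on log2 RPKM with the same 5 libraries. Their absolute log2 fold changes were larger than those of 12.5% (Rara), 43.2% (Rarg), 31.1% (Rxra) and 31.1% (Rxrb) of the genes tested. The median over all genes was -0.0097, with a median absolute value of 0.36. The scr and knockdown libraries overlapped in all 4, whereas they did not overlap in 50.2% of the genes tested. A p that misses the threshold does not show that the levels were equal, and the intervals of Rarg, Rxra and Rxrb include a change of 1.5-fold.

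**Figure D2:**
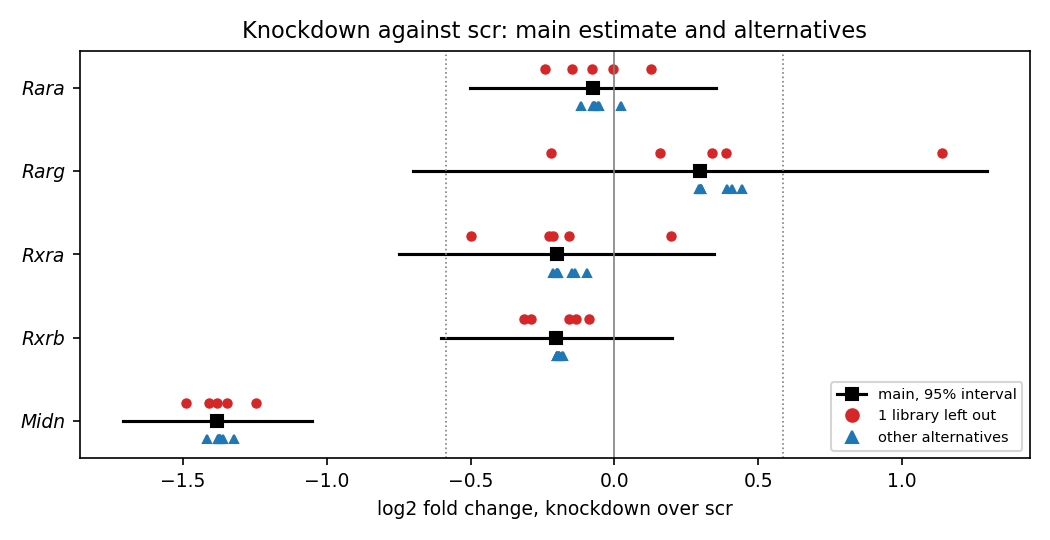
Log2 fold change of knockdown over scr (x axis) for the 4 tested receptors and for Midn. Black squares and lines give the estimate and its 95% interval from edgeR with 3 against 2 libraries, red points the estimates with 1 library left out, blue triangles the other alternatives, and dotted lines a 1.5-fold change. The interval of Midn lies below the dotted line, while those of the receptors include 0, and the red points of Rarg spread from -0.22 to 1.14.

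The contrast was also taken within each first number of the labels. Each number has a single scr library, so these contrasts carry the gap between scr 25-2 and scr 50-1. In the libraries labelled 25 (1 against 1), the RPKM of Rxra was higher in the knockdown than in the scr library, by 0.23 on the log2 scale, and in those labelled 50 (2 against 1) it was lower in both knockdown libraries, with a log2 ratio of the means of -0.51. Rxrb likewise had log2 ratios of 0.12 and -0.40. Rarg had 0.95 in the libraries labelled 25 and -0.13 in those labelled 50, where the knockdown libraries lay on both sides of scr. Rara had -0.021 and -0.17. The contrasts of Rarg, Rxra and Rxrb thus pointed upward at 25 and downward at 50, and the 25 libraries have no replicate of either group. On the log2 scale scr 50-1 was above scr 25-2 by 1.38 in Rarg and 0.71 in Rxra, but by 0.22 in Rxrb, in which knockdown 25-3 (14.8) was also above knockdown 50-2 (12.3) and 50-5 (11.6). The difference between both contrasts, tested after the values had been seen, was -1.06 for Rarg (standard error 0.352, FDR 0.413, edgeR quasi-likelihood test of the interaction with Benjamini-Hochberg adjustment), -0.72 for Rxra (FDR 0.447), -0.51 for Rxrb (FDR 0.564) and -0.13 for Rara (FDR 0.902). In that fit knockdown 50-2 and 50-5 are the only libraries that share a group and a number, so the spread between samples rests on this pair.

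The makeup of each family was described by the share of each member in the family's summed RPKM. Rara made up 54.2% of the RAR sum in wt, 64.0% in scr 25-2, 47.2% in scr 50-1, 47.7% in knockdown 25-3, 45.0% in knockdown 50-2 and 48.5% in knockdown 50-5. Rarg made up nearly all of the rest, with Rarb at no more than 0.197%. Rara was thus the larger RAR in wt and scr 25-2, and Rarg in the other 4 libraries. Rxra made up 32.9% of the RXR sum in wt, 32.9% in scr 25-2, 40.9% in scr 50-1, 34.6% in knockdown 25-3, 39.6% in knockdown 50-2 and 38.4% in knockdown 50-5, and Rxrb made up the rest. The RAR sum was 14.9 (wt), 13.3 (scr 25-2), 23.6 (scr 50-1), 17.7 (knockdown 25-3), 23.2 (50-2) and 19.3 (50-5). For the RXR family the sum was 21.5 (wt), 20.3 (scr 25-2), 26.7 (scr 50-1), 22.6 (knockdown 25-3), 20.4 (50-2) and 18.8 (50-5). The ratio of the RXR to the RAR sum was 1.44 in wt, 1.33 ± 0.275 (SD, n = 2) in scr and 1.04 ± 0.210 (SD, n = 3) in knockdown cells. It lay below 1 in knockdown 50-2 (0.881) and 50-5 (0.971), and knockdown 25-3 (1.28) lay between scr 50-1 (1.13) and scr 25-2 (1.52), so the groups overlapped.

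**Figure D3:**
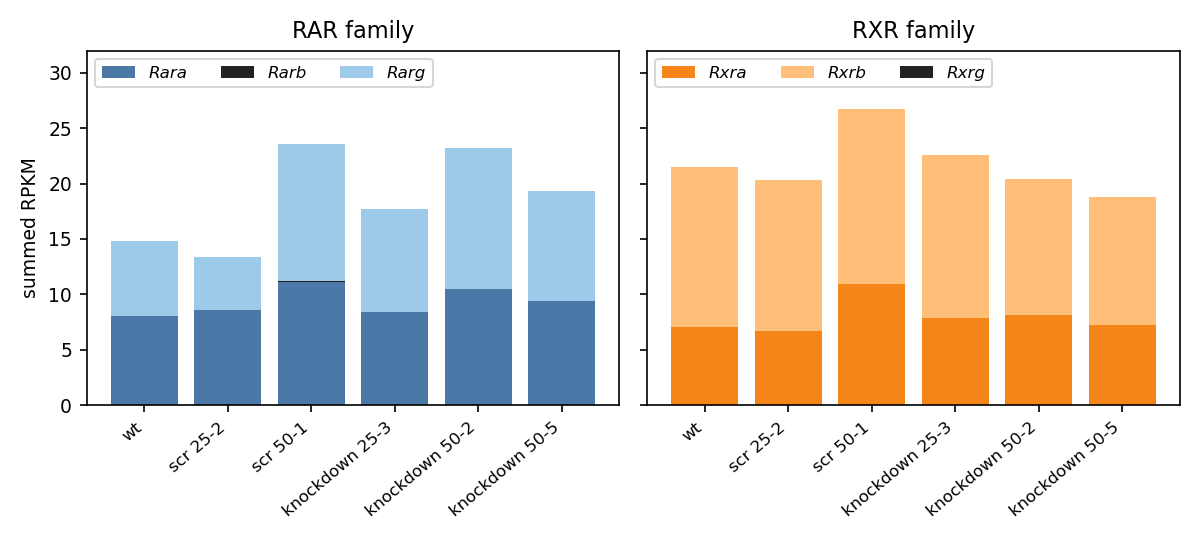
Summed RPKM of the RAR family (left) and the RXR family (right) in each library, stacked by member. Rara with Rarg and Rxra with Rxrb fill the bars, the black Rarb layer is at most a thin line, and the tallest RAR bars are those of scr 50-1 (23.6) and knockdown 50-2 (23.2).

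The wt library carries no vector and has no replicate, so its values were only set beside the others. It lay within the range of both scr libraries for Rarg, Rxra and Rxrb and below it for Rara. In each of these receptors, wt was nearer to scr 25-2 than to scr 50-1.

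For each expressed receptor, the 3 genes with the most similar profile over the 6 libraries were taken as the highest Pearson correlations of log2 CPM among the 8183 genes that averaged an RPKM of 5 or more. With so many genes and 6 points, high values are found for any gene, and they are given as a description. For Rara these were Ddx46 (0.989), Golga2 (0.983) and Pgk1 (0.978). Rarg was most like Fam98a (0.997), Samm50 (0.994) and Zrsr2 (0.993). Atp2a2 (0.999), Resf1 (0.996) and Kdelr1 (0.991) were most like Rxra, and Thap11 (0.977), Rbm12b2 (0.970) and Nob1 (0.969) most like Rxrb. Atp2a2, a calcium pump of the endoplasmic reticulum, had RPKM values of 129 in wt, 115 in scr 25-2, 329 in scr 50-1, 165 in knockdown 25-3, 172 in knockdown 50-2 and 135 in knockdown 50-5. As in Rxra, scr 50-1 stood above the other libraries. A correlation of at least 0.9 was reached by 36 genes with Rara, 127 with Rarg, 129 with Rxra and 33 with Rxrb.

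Other genes of the pathway were taken from 5 lists, which share some genes and hold 54 different genes beside the receptors. Of 38 tested, 9 were called (23.7%, beside 10.6% of all genes), 4 higher and 5 lower. The share was 3 of 7 in ligand supply and delivery, 4 of 9 in heterodimer partners, 2 of 7 in retinoic acid-inducible genes, 1 of 9 in coactivators and 0 of 9 in corepressors. The median log2 fold change was -0.36 in ligand supply, -0.14 in the partners, -0.60 in the inducible genes, -0.27 in the coactivators and -0.07 in the corepressors, beside -0.0097 over all genes tested. The lists were written with results on retinoid genes known, and the study names Aldh1a1 and Stra6 from these libraries, so these shares are not independent evidence. With knockdown 50-2 left out 2 list genes were called, without 25-3 there were 3, without 50-5 there were 5, and without scr 25-2 there were 15. The calls over all genes moved in the same direction, to 131, 259, 346 and 2273 in these settings.

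In ligand supply, Aldh1a1, which makes retinoic acid from retinaldehyde, fell from a mean RPKM of 758.2 to 198 (log2 fold change -1.95, Benjamini-Hochberg FDR 0.00777 by the quasi-likelihood test of edgeR). Rdh11, a retinal reductase, fell by 0.91 on the log2 scale (FDR 0.0328). Stra6, the membrane receptor for retinol uptake, rose from 65.7 to 283 (log2 fold change 2.09, FDR 0.0117). Rdh10, which makes retinaldehyde from retinol, had a mean RPKM of 12.98 in scr and 64.5 in knockdown cells, with all knockdown libraries above scr, but was not called (log2 fold change 2.31, FDR 0.0591). Crabp1 and Crabp2, which carry retinoic acid in the cell, had at most 1 and 8 counts, whereas Fabp5, which also binds retinoic acid, had a mean RPKM of 7.76 in scr and 17.3 in knockdown cells (FDR 0.125). Without knockdown 50-2 the FDR was 0.0509 for Stra6 and 0.0548 for Aldh1a1, and the call of Rdh11 was lost without any 1 of the knockdown libraries (FDR up to 0.125) or without scr 50-1.

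Among retinoic acid-inducible genes, Stra6 was higher and Tgm2, a transglutaminase, fell from 106 to 41.1 (log2 fold change -1.38, Benjamini-Hochberg FDR 0.0086 by the quasi-likelihood test of edgeR). Dhrs3, a retinaldehyde reductase, had an RPKM of 8.98 in wt, 8.02 and 21.03 in the scr libraries and 4.26 to 8.83 in the knockdown libraries, which overlapped scr. Nrip1 (27.3 to 38.6), Meis1 (1.64 to 3.601), Meis2 (1.66 to 3.58) and Hoxa5 (0.918 to 1.90) were also expressed over the 6 libraries, and none was called. Others were silent or nearly so in each library. Cyp26a1, which carries the DR5 element shown above, had at most 4 counts, Cyp26b1 at most 5 and Hoxb1 at most 1. Cdx1 had 0 counts in each library. Of the 15 genes in this list, which leaves out Rarb, 8 did not reach an RPKM of 1. Tgm2 kept its call with each library left out in turn.

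**Figure D4:**
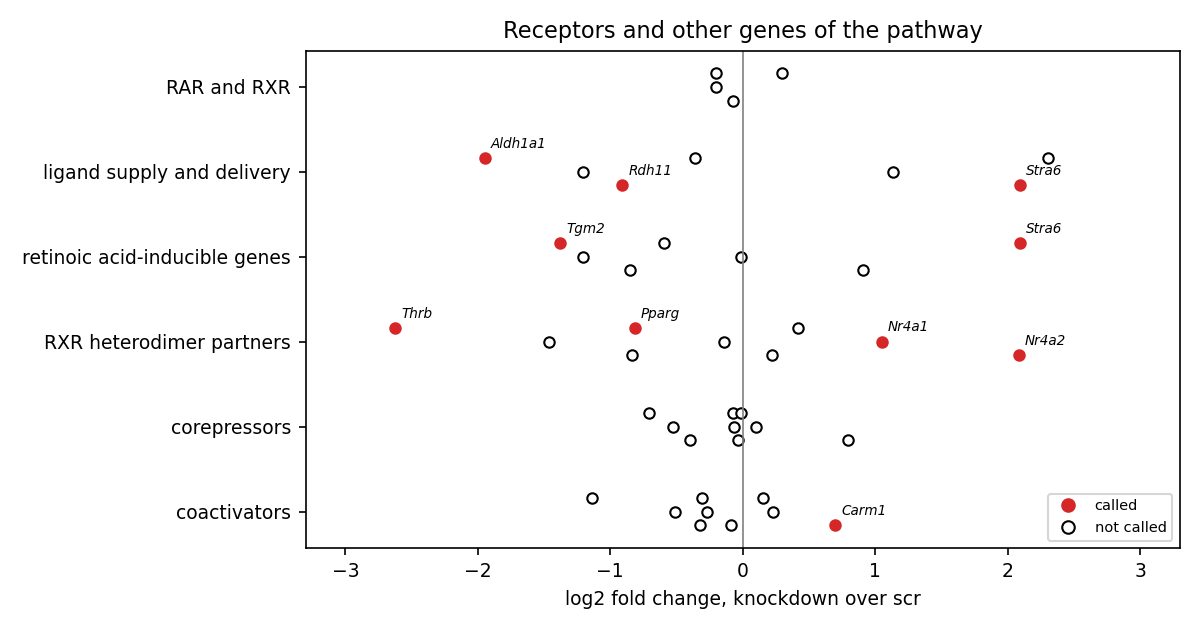
Log2 fold change of knockdown over scr (x axis) for the tested genes of each list and of the receptors, with called genes in red and named. The 4 receptors lie between -0.20 and 0.30 and none is called, while the called genes reach from -2.63 (Thrb) to 2.09 (Stra6).

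Among the other nuclear receptors that pair with RXR, Thrb, a thyroid hormone receptor, fell from a mean RPKM of 4.87 to 0.795 (log2 fold change -2.63, Benjamini-Hochberg FDR 0.00896 by the quasi-likelihood test of edgeR). Pparg, a fatty acid sensor, fell from 10.8 to 6.20 (log2 fold change -0.81, FDR 0.0429). The orphan receptors Nr4a1 and Nr4a2 rose, with log2 fold changes of 1.05 (FDR 0.0291) and 2.08 (FDR 0.0114). Nr1h2, a liver X receptor, had the highest level of the 13 partners in the list, with a mean RPKM of 18.2 over the 6 libraries, beside 13.8 for Rxrb. Nr1i2 had 0 counts in each library. Without knockdown 50-2 the calls of Pparg (FDR 0.160), Nr4a1 (0.107) and Nr4a2 (0.0643) were lost, without 25-3 those of the same 3 genes and of Thrb (0.0504), without 50-5 those of Pparg (0.115) and Nr4a1 (0.0916), and without scr 50-1 that of Pparg (0.0860). Pparg was also not called without the filter on low values (0.0523).

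All 9 corepressors and all 9 coactivators passed the filter and were tested. Of the corepressors, Hdac3, the deacetylase of the NCoR complex, had the highest mean RPKM over the 6 libraries (43.1), at 43.4 in scr and 42.7 in knockdown cells (Benjamini-Hochberg FDR 0.876 by the quasi-likelihood test of edgeR). It was followed by Tbl1x, a subunit of the same complex (41.2 over the 6 libraries), with means of 55.8 in scr and 34.3 in knockdown cells (FDR 0.147). Tbl1x was above Hdac3 in scr 50-1 (73.7 and 43.6) but below it in scr 25-2 (37.8 and 43.2). Of the coactivators, Carm1, an arginine methyltransferase, rose from 18.2 to 29.7 (log2 fold change 0.70, FDR 0.0300). The call of Carm1 was lost without any 1 of the knockdown libraries, with an FDR of 0.0873 without 50-5, 0.111 without 25-3 and 0.125 without 50-2.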

How the data were processed

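Reads of ribosome-depleted RNA were aligned by the authors with TopHat2 (mm10), and HTSeq gave the deposited counts per RefSeq gene, which are not normalized. Whether counting used strand is not given in the sources used here. The authors computed the deposited RPKM values with TMM-scaled library sizes, and each was found to be the count per exon kilobase times 1 constant per library. Columns were matched to samples by name, with 0 left over.

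Counts of the 3 knockdown and 2 scr libraries were tested with edgeR 4.0.16 (R 4.3.3; quasi-likelihood, TMM, Benjamini-Hochberg adjustment over the genes whose RPKM exceeded 1 in any of these libraries). Calls needed an FDR below 0.05 together with a change of 1.5-fold or more. The study compared clones sh1 and sh2 with scr, but the labels name no clones, so all 3 knockdown libraries were used. Standard errors are the log2 fold change over the root of F. The scripts were tested on simulated data. Alternatives used DESeq2 1.42.0, limma 3.58.1, other size factors and filters, wt as a further control, the label number as a block, and each library left out.

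The members and lists were chosen with earlier results of these data known, and some list genes are not reported here and were left out of the lists' counts. Genes named are the receptors, Midn, the called genes of each list (otherwise the 2 with the highest mean RPKM), genes of like profile (log2 CPM, prior count 2, at least 10 counts in every library for the receptor) and a few chosen after their values were seen, namely Fabp5, Crabp1, Crabp2, Cyp26a1, Cyp26b1, Dhrs3, Rdh10, Nrip1, Meis1, Meis2, Hoxa5, Hoxb1, Cdx1, Nr1h2, Nr1i2 and the markers. Plots used matplotlib 3.10.9. No protein sequences were used here.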

Additional observations from a re-analysis of the deposited data

Results flagged for a closer look

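The contrasts of Rxra and Rxrb pointed in opposite directions in the libraries labelled 25 and those labelled 50. At 25 a single knockdown library is set against a single scr library, which always gives a direction. The share of all genes with such opposite directions was not counted. Rxra was higher in knockdown 25-3 than in scr 25-2 and lower in knockdown 50-2 and 50-5 than in scr 50-1, and the contrast differed by -0.72 on the log2 scale between 50 and 25 (standard error 0.273, unadjusted p 0.0546, FDR 0.447, edgeR quasi-likelihood test of the interaction). For Rxrb the difference was -0.51 (standard error 0.271, unadjusted p 0.134, FDR 0.564 from the same test). These tests were chosen after the values had been seen, and an interaction passed an FDR of 0.05 in 2 of 11577 genes. Rarg had a larger difference than both (-1.06) but is not flagged, because its knockdown libraries labelled 50 lay on both sides of scr. Each number has 1 scr library. Scr 50-1 was above scr 25-2 by 0.71 on the log2 scale in Rxra, about the size of its difference, but by 0.22 in Rxrb, in which knockdown 25-3 (RPKM 14.8) was also above knockdown 50-2 (12.3) and 50-5 (11.6). The spread in the test rests on knockdown 50-2 and 50-5 alone. What the numbers stand for is not given in the labels, and the groups are too small for the search for single deviating samples.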

How the results depend on the processing

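Rxrb kept its direction and stayed uncalled in all 13 alternatives (log2 fold change -0.31 to -0.090). Rara reversed with wt added to the controls (0.022) and ranged from -0.24 to 0.13 with 1 library left out, Rarg from -0.22 to 1.14, Rxra from -0.50 to 0.20, and Rxrb from -0.31 to -0.090. The extremes of Rarg and Rxra came from leaving out 1 or the other scr library. The genes called, 1230 (625 higher and 605 lower), were 2322 (1167 and 1155) with DESeq2, 807 (419 and 388) with the label number as a replicate block, and 131 to 2273 (89 to 1146 and 42 to 1127) with 1 library left out. The cause was not tested. The count of called list genes, 9, was 14 with DESeq2, 5 with the replicate block and 2 to 15 with 1 library left out. With the block the calls of Pparg (FDR 0.0617), Nr4a1 (0.0577), Rdh11 (0.0590) and Carm1 (0.0566) were lost. Whether the number ties libraries together is not given in the labels. Across genes the deviation of scr 25-2 from its group mean correlated at 0.0025 with that of knockdown 25-3, and at 0.073 and -0.062 with those of knockdown 50-2 and 50-5. Rarb without a filter had a log2 fold change of -0.73 (95% interval -3.06 to 1.60), and Rxrg had no value in any setting. Depth limits what can be said of Rarb and Rxrg, and there were 2 scr libraries for the others.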
